A study of Bos taurus with 30 samples.

Results

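SLPI (ENSBTAG00000004148), CXCL17 (ENSBTAG00000018652) and LOC407163 (ENSBTAG00000046375, a trappin) are 3 of the 10476 genes measured in endometrial cytobrush RNA from dairy cows at 7 days postpartum (DPP). The 3 genes were picked because earlier results of these data showed very high levels in healthy cows with few polymorphonuclear neutrophils (PMN) and near absence in inflamed cows, so their difference between inflamed and non-inflamed healthy cows is given as a description and not as a test. SLPI and CXCL17 were found by their symbol and LOC407163 by its Ensembl gene, since the tables give no symbol for it. All samples came from mixed-parity Holstein-Friesian cows of 1 farm, none of them experimentally treated, and each library is the uterine brush of 1 cow. The cows were grouped by what they became at 21 DPP and by whether PMN made up at least 18% of the brushed cells at 7 DPP, here called inflamed. The groups are cows with purulent vaginal discharge and cytological endometritis (PVD with CYTO, n = 4), PVD alone (n = 4), inflamed CYTO cows (n = 4), inflamed cows that stayed healthy (n = 5), non-inflamed CYTO cows (n = 5) and non-inflamed cows that stayed healthy (n = 5). All 8 PVD cows were inflamed. A brush takes up surface epithelium together with immune cells and fragments of the wall, so in this bulk RNA fewer cells of a type and less RNA per cell cannot be told apart.

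The 3 genes encode secreted proteins of mucosal surfaces. SLPI, the secretory leukocyte protease inhibitor, blocks elastase and cathepsin G released by neutrophils and also has antimicrobial activity. Trappins are inhibitors of the same kind that carry a domain of the whey acidic protein family beside a stretch through which they can be anchored to the extracellular matrix, and the best known member in humans is elafin, the product of PI3. CXCL17 is a chemokine of mucosal epithelia that attracts cells of the monocyte lineage and has antimicrobial activity. In the RefSeq gene order of the ARS-UCD2.0 assembly, LOC407163 and SLPI lie on chromosome 13 with 3 genes between them, namely PI3, WFDC15B and LOC512548, while CXCL17 lies on chromosome 18. The trappins are a multigene family and reads shared by near-identical copies were not counted, so the level of LOC407163 is less certain than that of SLPI or CXCL17.

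The 27 libraries held 11922966 to 39202083 counted reads (median 23107772), and 1 read stands for 0.0255 to 0.0839 CPM, the reads of a gene scaled to a library total that is the same for all cows. A count of 3 reads, taken as the floor, is 0.0765 to 0.252 CPM. Epithelial markers were present in every group, with EPCAM means of 111 to 575 CPM, as was the stromal proteoglycan gene DCN with means of 2301 to 7037 CPM. Which library was sequenced in which of the 5 pools is not given in the sources used here, so pools and groups cannot be told apart. Fold changes are on the log2(CPM + 1) scale, which understates the change of genes with few reads.

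In healthy cows, all 3 genes had far lower mean levels where the brush was inflamed at 7 DPP. SLPI was at 0.128, 0.202, 4.19, 2.76 and 0.144 CPM in inflamed healthy cows s1066, s1570, s1831, s2053 and s2392, against 599, 0.713, 50.9, 399 and 4769 CPM in non-inflamed healthy cows s1340, s1890, s2006, s2224 and s2570. Of the inflamed cows, 3 had exactly 3 SLPI reads, and 4 of the 5 non-inflamed cows lay above every inflamed one. The exception was cow s1890, whose SLPI level lay among those of the inflamed cows. CXCL17 was at 0, 1.48, 11.9, 3.79 and 0.0479 CPM in the same inflamed healthy cows and at 1749, 5.10, 121, 1043 and 1030 CPM in the non-inflamed ones. Cow s1890 was again the lowest of its group, and the 3 cows with the most SLPI also had the most CXCL17.

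LOC407163 was at 6.47, 11.02, 100.4, 27.9 and 125 CPM in inflamed healthy cows and at 7978, 10.7, 959, 7130 and 43900 CPM in non-inflamed healthy cows, in the same order of cows. In cow s2570 it made up 1007490 of the counted reads. Cows s1340, s2224 and s2570 therefore carried all 3 transcripts at high levels, cow s2006 carried them at intermediate levels, and cow s1890 lay in the range of inflamed cows for each of them. The log2 fold change of inflamed against non-inflamed healthy cows was -6.33 for SLPI (standard error 1.74), -6.61 for CXCL17 (1.45) and -5.93 for LOC407163 (1.91), beside a median of 0.14 over 10424 genes. These are the values that chose the genes. Because of cow s1890 the ranges of the groups overlapped for all 3 members, whereas 0.643% of the genes tested lay lower in inflamed cows with no overlap. No gene passed limma's test at an adjusted p under 0.05 and a log2 fold change beyond 1 (percent called 0), although 2691 genes had an unadjusted p under 0.05, DESeq2 on reads recovered from the CPM called 875, edgeR called 0, and limma without cow s1890 called 2156.

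**Figure D1:**
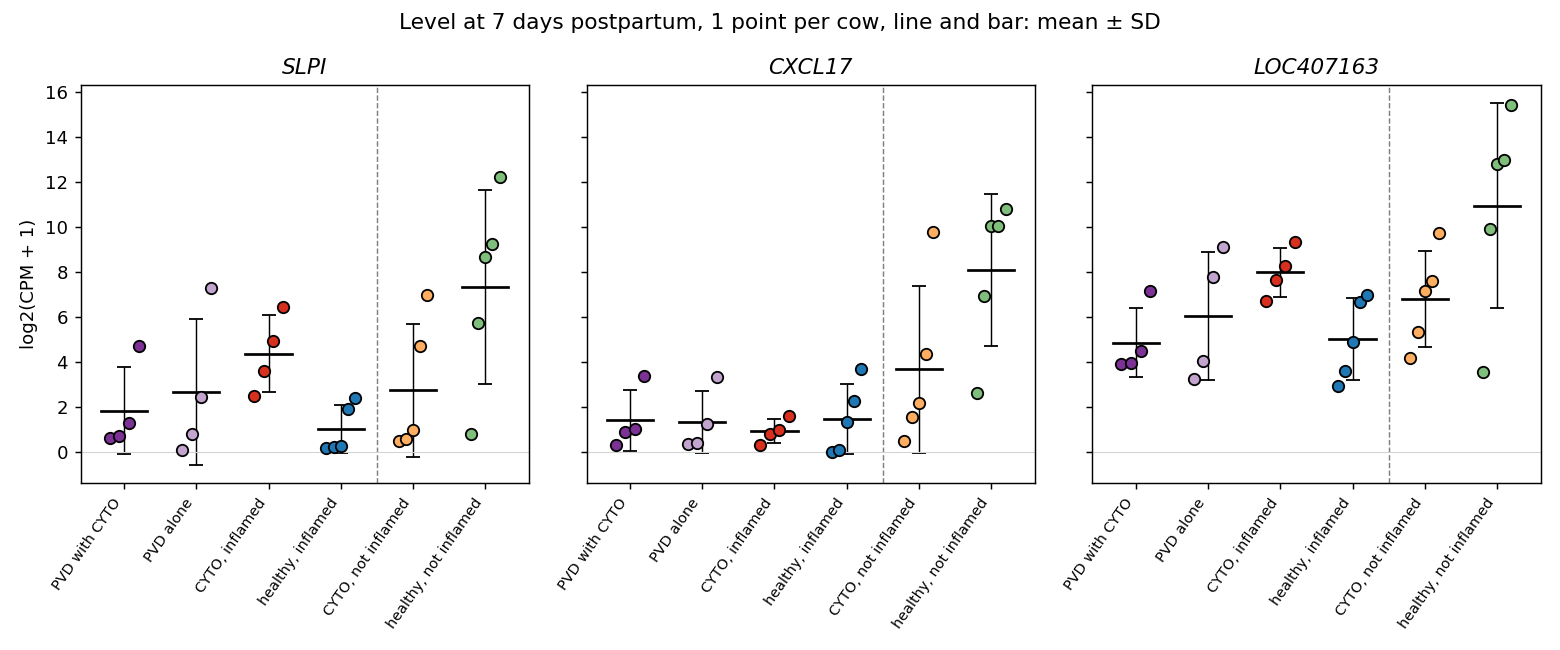
Level of each gene in log2(CPM + 1) for each of the 27 cows (points), with the group mean (line) and SD (bar), by outcome at 21 DPP and inflammation at 7 DPP; the dashed line separates inflamed groups (left) from non-inflamed groups (right). In the group of non-inflamed healthy cows 1 point lies far below the other 4 for each gene, and 1 non-inflamed CYTO cow stands above the rest of its group; CXCL17 stays under 4 in every inflamed cow, while SLPI and LOC407163 spread upwards in inflamed CYTO and PVD cows.

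Non-inflamed cows that later developed CYTO mostly lacked these high levels. SLPI was at 125, 25.1, 0.460, 0.959 and 0.363 CPM in non-inflamed CYTO cows s1183, s2167, s2178, s2382 and s2421. CXCL17 was at 874, 19.0, 3.43, 1.87 and 0.400 CPM in these cows, and LOC407163 was at 851, 142, 16.8, 188 and 39.4 CPM. Cow s1183 had the highest level of each gene in its group, and for CXCL17 it lay close to the high healthy cows. The ranges overlapped those of non-inflamed healthy cows for each gene, and only 0.0575% of all genes lay lower in non-inflamed CYTO cows with no overlap. The log2 fold change against non-inflamed healthy cows was -4.58 for SLPI (standard error 2.08, 95% interval -9.21 to 0.04), -4.42 for CXCL17 (1.99, -8.85 to 0.01) and -4.14 for LOC407163 (2.003, -8.59 to 0.31). Healthy cows of this comparison were used in choosing the genes, so these differences are not independent of the choice.

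No p-value is therefore given for the members between non-inflamed CYTO and healthy cows. Limma called none of 10428 genes there (percent called 0). At an unadjusted p under 0.05 there were 1415 genes, DESeq2 called 39 and edgeR 0. The value for CXCL17 depended on the fit, at -2.37 by DESeq2 and -2.38 by edgeR, while both gave larger differences for SLPI (-5.57 and -5.56) and LOC407163 (-5.91 and -5.90). Without cow s1890 the limma values were -6.22 for SLPI and -5.99 for LOC407163.

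Within CYTO cows, inflammation at 7 DPP went with no difference in these genes that passed the test, and the estimates did not share a sign. The genes were picked for near absence in inflamed cows, so tests on inflamed CYTO cows are not independent of the choice. SLPI was at 4.51, 10.96, 84.9 and 29.5 CPM in inflamed CYTO cows s1944, s2039, s2064 and s2184, all of them above 3 of the 5 non-inflamed CYTO cows. LOC407163 was at 102, 303, 196 and 633 CPM in the same inflamed cows. CXCL17 was at 0.705, 2.01, 0.228 and 0.925 CPM, all of them below 3 of the 5 non-inflamed CYTO cows. In inflamed against non-inflamed CYTO cows the log2 fold change was 1.62 for SLPI (standard error 1.46, 95% interval -1.67 to 4.91, adjusted p = 0.429), 1.18 for LOC407163 (1.04, -1.16 to 3.51, adjusted p = 0.419) and -2.75 for CXCL17 (1.65, -6.47 to 0.97, adjusted p = 0.238) by limma. None of the 3 was called, where limma called 8.72% of 10443 genes. Neutrophil genes moved with inflammation in these cows, 15 of 17 being called higher (median log2 fold change 2.92), while 0 of 19 epithelial genes were called (median -0.35), and the part of these cells in the members' values was not tested. On the recovered reads the log2 fold change was 0.20 by DESeq2 and 0.21 by edgeR for SLPI, 0.43 and 0.44 for LOC407163, and -7.47 by both for CXCL17, for which edgeR gave an adjusted p = 0.0728 and DESeq2 none. Single cows also weighed on the limma values. Without cow s1183 they were 2.68 for SLPI, 1.92 for LOC407163 and -1.22 for CXCL17, and over all cows left out in turn they ran from 0.928 (without cow s2064) to 2.68, from 0.519 (without cow s2178) to 1.92, and from -3.54 (without cow s2421) to -1.22 in that order of genes.

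The difference by inflammation can be set side by side for the 2 outcomes. The change in CYTO cows minus the change in healthy cows was 7.95 on the log2 scale for SLPI (standard error 2.45), 7.11 for LOC407163 (2.41) and 3.86 for CXCL17 (2.33), the last being 0.64 by DESeq2 and 0.63 by edgeR. The healthy side of this difference is the contrast that chose the genes, so it is given without a test. Limma called 0.0764% of 10471 genes for this difference.

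Within inflamed cows, SLPI and LOC407163 had higher mean levels in cows that later developed CYTO than in cows that stayed healthy, and CXCL17 did not. The inflamed healthy cows were 1 side of the contrast that chose the genes, which were picked for low levels in them, so tests against these cows are not independent of the choice. For SLPI the 4 inflamed CYTO cows, at 4.51 to 84.9 CPM, all lay above the 5 inflamed healthy cows, at 0.128 to 4.19 CPM. Such a separation in this direction was seen for 1.41% of 10432 genes. The gap between the nearest cows was small, since inflamed CYTO cow s1944 had 4.51 CPM and inflamed healthy cow s1831 had 4.19 CPM. The log2 fold change of SLPI was 3.37 (standard error 0.80, 95% interval 1.58 to 5.15), which did not pass limma's test over all genes (adjusted p = 0.174). DESeq2 called SLPI (log2 fold change 4.60, adjusted p = 0.00198), edgeR did not (4.63, adjusted p = 0.332), and its adjusted p ranged up to 1 in a fit over all 27 cows.

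LOC407163 averaged 309 ± 231 CPM in inflamed CYTO cows (SD, n = 4) and 54.2 ± 54.8 CPM in inflamed healthy cows (SD, n = 5), with overlapping ranges. Its log2 fold change was 2.97 (standard error 0.87, 95% interval 1.03 to 4.91, adjusted p = 0.367 by limma). CXCL17 averaged 0.968 ± 0.756 CPM in inflamed CYTO cows and 3.45 ± 4.98 CPM in inflamed healthy cows (SD, n = 4 and 5), a log2 fold change of -0.57 with a 95% interval of -2.25 to 1.12 (limma, adjusted p = 1), which was -1.71 by DESeq2 and -1.69 by edgeR. None of the members was among the 43 genes that limma called there, all higher in inflamed CYTO cows (percent called 0.412), and the median over all genes was -0.08.

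Other genes differed between the same inflamed cows, among them markers of squamous epithelium and of neutrophils. Limma called TGM3, a transglutaminase of cornifying epithelium, with a log2 fold change of 5.57 (adjusted p = 0.0497), and the neutrophil gene CSF3R, the receptor of the granulocyte growth factor, with 4.07 (adjusted p = 0.0292). CCL20, a chemokine that epithelia release in inflammation, was called with 3.57 (adjusted p = 0.0175). Over whole lists, 2 of 17 neutrophil genes, 1 of 3 squamous genes, 1 of 10 chemokine and receptor genes and 0 of 19 epithelial genes were called, with median log2 fold changes of 1.89, 4.53, 0.45 and 0.40. The neutrophil level, as the mean log2(CPM + 1) of the list, ran from 6.56 to 7.40 in inflamed CYTO cows and from 3.76 to 6.92 in inflamed healthy cows. The squamous level ran from 5.29 to 7.67 in inflamed CYTO cows and from 0.97 to 5.26 in inflamed healthy cows. Its defining keratins KRT5, KRT13 and KRT14 were not analysed here, and neither was the neutrophil receptor CXCR2. The part of these cells in the SLPI difference was not tested.

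**Figure D2:**
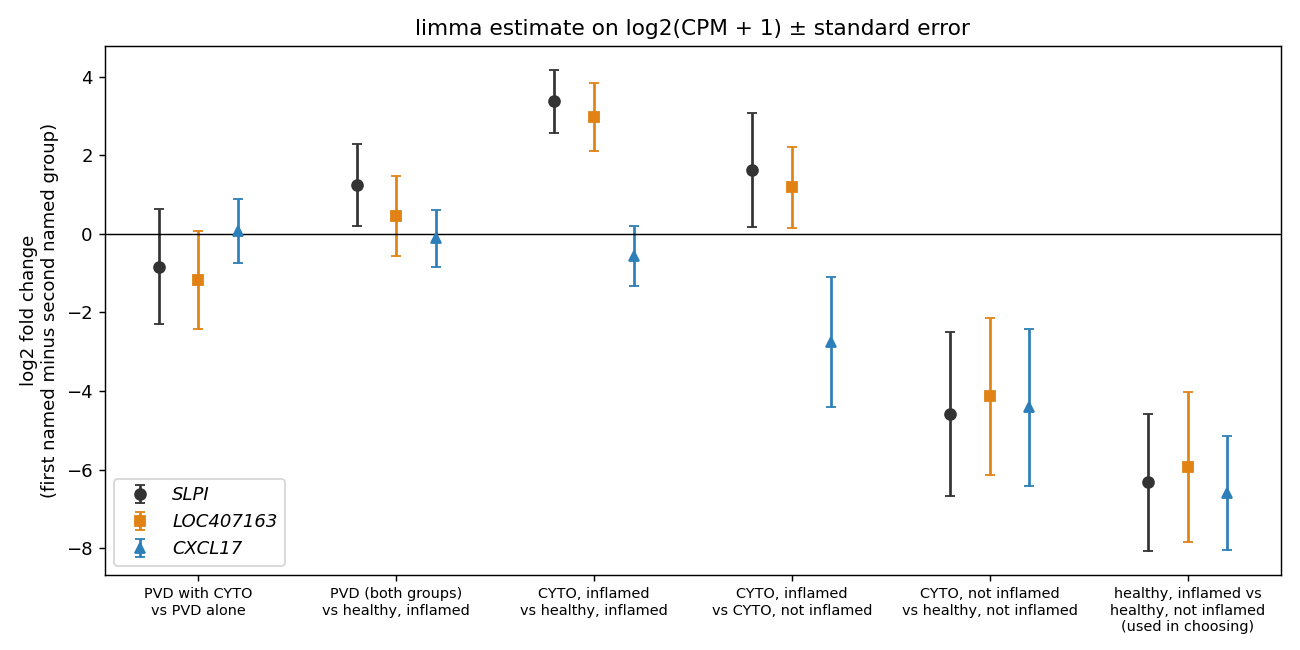
Log2 fold change of SLPI (circles), LOC407163 (squares) and CXCL17 (triangles) with standard errors (bars) from limma, for 6 pairs of groups; positive values mean a higher mean level in the group named first. The pair on the right was used in choosing the genes and is a description. SLPI and LOC407163 in inflamed CYTO against inflamed healthy cows stand at 3.37 and 2.97, and CXCL17 at -0.57.

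Cows that developed PVD, all inflamed, showed no difference from inflamed healthy cows that passed the test in any of the 3 genes. The genes were picked for near absence in inflamed cows, and every cow in the comparisons of PVD was inflamed. Their tests are therefore not independent of the choice. SLPI was at 24.6, 0.513, 0.595 and 1.42 CPM in PVD with CYTO cows s1239, s1829, s2161 and s2202, and at 4.41, 0.0547, 0.714 and 153.5 CPM in PVD alone cows s1194, s2520, s2622 and s2683. Cows s1239 and s2683 stood above the other 6, and the SLPI level of cow s2683 was the highest of the 17 inflamed cows. LOC407163 was at 138, 13.7, 14.2 and 20.95 CPM in PVD with CYTO cows and at 15.4, 8.38, 215 and 553 CPM in PVD alone cows, in the same order. Cow s2683 was again the highest of its group, and so was cow s1239 among cows with PVD and CYTO. CXCL17 was at 0.822, 0.237, 9.32 and 1.02 CPM in PVD with CYTO cows and at 8.79, 0.274, 0.281 and 1.37 CPM in PVD alone cows, and thus low in all 8, with its highest values in other cows than those of SLPI.

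For PVD against inflamed healthy cows the log2 fold change was 1.24 for SLPI (standard error 1.05, 95% interval -0.99 to 3.47, limma adjusted p = 0.806), 0.44 for LOC407163 (1.02, -1.72 to 2.61, adjusted p = 0.881) and -0.12 for CXCL17 (0.72, -1.65 to 1.41, adjusted p = 0.956). The signs for LOC407163 and CXCL17 turned when single cows were left out. For SLPI, cow s2683 weighed most, and without it the value was 0.52. On the recovered reads SLPI was at 4.53 by DESeq2, which gave no p for it, and at 4.51 by edgeR (adjusted p = 0.854), and LOC407163 was at 1.65 and 1.61. Neither a member nor any other of 10430 genes was called (percent called 0), 244 had an unadjusted p under 0.05, DESeq2 called 3 and edgeR 0. Between PVD with CYTO and PVD alone the log2 fold changes were -0.84 for SLPI (95% interval -4.05 to 2.38), -1.19 for LOC407163 (-3.94 to 1.56) and 0.08 for CXCL17 (-1.71 to 1.87), with limma adjusted p = 0.944, 0.944 and 0.977 in that order of genes. DESeq2 and edgeR gave -1.69 and -1.85 for SLPI and 0.46 and 0.37 for CXCL17. Here too no gene was called (percent called 0), 12 had an unadjusted p under 0.05, and DESeq2 and edgeR called 0. The intervals span several log2 units for SLPI and LOC407163, so that sizeable differences in either direction remain possible at this number of cows.

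The genes were picked for near absence in inflamed cows, so their levels there are a description and no test of the choice. CPM does not account for gene length, so these levels compare cows and not genes. Across the 17 inflamed cows CXCL17 ran from 0 to 11.9 CPM with a median of 0.925 CPM, SLPI ran from 0.0547 to 153.5 CPM with a median of 2.76 CPM, and LOC407163 ran from 6.47 to 633 CPM with a median of 100.4 CPM. In the 10 non-inflamed cows the medians were 70.1 CPM for CXCL17, 37.96 CPM for SLPI and 519 CPM for LOC407163. By mean log2 level, SLPI was highest in non-inflamed healthy cows (7.31), followed by inflamed CYTO (4.35), non-inflamed CYTO (2.73), PVD alone (2.64), PVD with CYTO (1.81) and inflamed healthy cows (0.98). LOC407163 had the same order of the first 4 groups (10.93, 7.97, 6.79 and 6.03), with inflamed healthy cows (4.997) before PVD with CYTO (4.85). CXCL17 was ordered otherwise, with both non-inflamed groups first (healthy 8.07, CYTO 3.65), then inflamed healthy cows (1.47), PVD with CYTO (1.39), PVD alone (1.31) and inflamed CYTO cows (0.90). Neighbouring groups overlapped in range for every gene, and their distance was below the larger of their SDs except for CXCL17 in non-inflamed healthy against CYTO cows.

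Among inflamed cows SLPI and LOC407163 varied together, while neither had a relation with CXCL17 that passed the test. The genes were picked for near absence in inflamed cows, so these tests are not independent of the choice. The permutations ran over all 17 cows regardless of group, so their p-values do not separate differences between groups from differences among cows of a group. CXCL17 spread less in these cows (SD 1.19 on the log2(CPM + 1) scale, against 2.28 for SLPI), which limits its r. Over the 17 inflamed cows Pearson's r of log2(CPM + 1) between SLPI and LOC407163 was 0.745 (permutation p = 0.00059, adjusted over 3 pairs 0.00177) and Spearman's rho was 0.789 (permutation p = 0.00038, adjusted 0.00114). Without cows s2683 and s2064, the farthest from the median of SLPI, r was 0.699. After the group means were taken out it was 0.638, for which no p was computed. For SLPI and CXCL17 r was 0.0347 (adjusted permutation p = 0.895) and rho 0.289 (adjusted 0.388). For LOC407163 and CXCL17 r was -0.112 (adjusted permutation p = 0.895) and rho 0.0637 (adjusted 0.81). Differences between the r values of the pairs were not tested. The 4 inflamed CYTO cows show the split within single libraries: SLPI exceeded CXCL17 in all 4, with a mean difference of 3.45 on the log2(CPM + 1) scale (SD 2.06), whereas the difference averaged -0.48 (SD 0.68) in inflamed healthy cows and -0.76 (SD 1.67) in non-inflamed healthy cows. As CPM does not account for gene length, only the change of this difference between groups carries meaning.

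**Figure D3:**
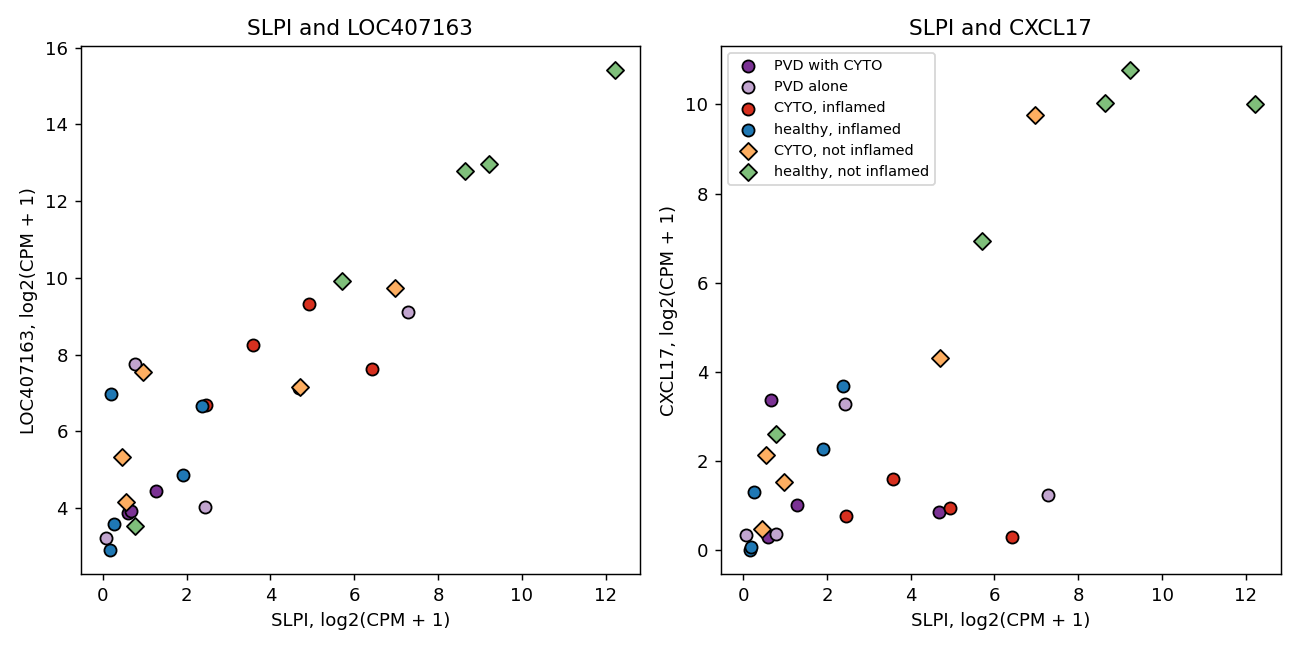
Level of LOC407163 (left) and CXCL17 (right) against SLPI in each of the 27 cows, all in log2(CPM + 1); circles are inflamed cows and diamonds non-inflamed cows, coloured by group. SLPI and LOC407163 lie along 1 band in both kinds of cow, whereas the inflamed cows with much SLPI, up to 153.5 CPM in cow s2683, have little CXCL17.

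The genes most like the 3 members were ranked by the mean of Pearson's r with them over the 27 cows, which include the cows that chose the members. The first 10 were CHST4 (0.90), AGR3 (0.90), EYA2 (0.89), AGR2 (0.89), PROM1 (0.88), GALNT5 (0.88), LF (0.88), FRY (0.87), TFF3 (0.87) and TMPRSS3 (0.87). CHST4 adds sulphate to mucin-type sugars, and GALNT5 starts such sugar chains. AGR2 and AGR3 belong to a family of disulphide isomerases in the endoplasmic reticulum. TFF3 is a trefoil peptide secreted with mucins, and LF is lactoferrin. AGR2 averaged 132 ± 162 CPM in inflamed healthy cows and 7289 ± 6679 CPM in non-inflamed healthy cows (SD, n = 5 each), and TFF3 averaged 7.58 ± 7.15 CPM in inflamed healthy cows and 1009 ± 951 CPM in non-inflamed healthy cows. The likeness rests in large part on the few cows in which all of these genes were high. Within the 17 inflamed cows the r of these 10 genes ran from 0.361 to 0.856 with SLPI, from 0.627 to 0.853 with LOC407163 and from -0.163 to 0.454 with CXCL17. CHST4 had r = 0.853 with SLPI and 0.075 with CXCL17, GALNT5 had 0.584 and 0.454, and TFF3 had 0.361 with SLPI and 0.401 with CXCL17, the only 1 of the 10 with the higher r for CXCL17. These correlations share libraries and are descriptions.

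Of the cows with high members, s1340, s2224, s2570 and s1183 also differed in the makeup of the brush. The mean log2(CPM + 1) of 19 epithelial genes was 7.46, 7.58 and 6.85 in the high non-inflamed healthy cows s1340, s2224 and s2570 and 7.43 in non-inflamed CYTO cow s1183, but 4.56 in non-inflamed healthy cow s1890. The mean of 16 stromal genes was 4.46, 5.40, 4.01 and 6.47 in the first 4 of these cows and 10.10 in cow s1890, and that of 15 macrophage and monocyte genes was 2.77, 3.63, 2.63 and 5.92 against 8.65. Inflamed cows ran from 4.11 to 6.27 for epithelium, from 7.85 to 10.88 for stroma and from 7.05 to 9.39 for macrophages and monocytes, and cow s1890 lay within each of these ranges. Non-inflamed healthy cow s2006, with LOC407163 at 959 CPM, lay within them for epithelium (6.26) and stroma (8.18) but below them for macrophages and monocytes (5.16). Inflamed PVD alone cow s2683 had SLPI at 153.5 CPM, against 125 CPM in cow s1183. Its levels were 5.09 for epithelium, 9.31 for stroma and 7.60 for macrophages and monocytes. The part of brush makeup in the members' levels was not tested.

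**Figure D4:**
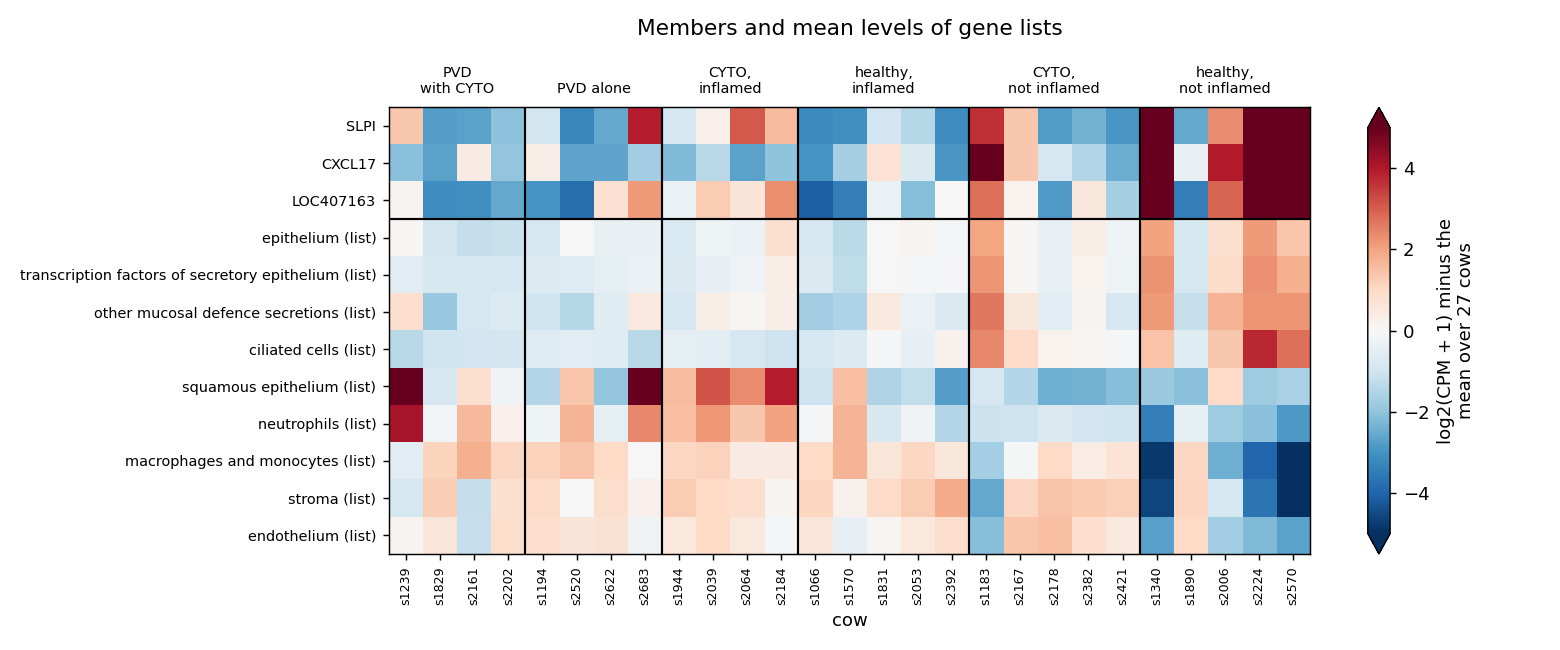
Level of the 3 members (top) and mean level of 9 gene lists (below) in each of the 27 cows, as log2(CPM + 1) minus the mean over all cows (colour, cut at 5 in either direction). Cows s1183, s1340, s2224 and s2570 are high in the members, epithelium and secretory lists and low in macrophages, stroma and endothelium; cows s1239 and s2683 are high in squamous and neutrophil lists, with SLPI at 24.6 and 153.5 CPM and CXCL17 at 0.822 and 1.37 CPM.

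Within the inflamed cows the lists related to the members in different ways. These tests too use cows in which the genes were picked for near absence, and their permutations ran regardless of group. Of 18 relations between the 3 members and 6 lists, SLPI had r = 0.717 with the 3 squamous genes (permutation p = 0.00154, adjusted 0.0139) and r = -0.717 with macrophages and monocytes (permutation p = 0.00139, adjusted 0.0139). These 3 are what could be used of a squamous list of 18 genes. They include SERPINB4, which is also on the list of protease inhibitors. LOC407163 had r = -0.666 with macrophages and monocytes (adjusted permutation p = 0.0163) and r = 0.618 with epithelium (adjusted 0.0385). By rank these relations were weaker, with rho of 0.605, -0.544, -0.645 and 0.512 in the same order and adjusted permutation p = 0.104, 0.151, 0.104 and 0.171. Without the cows farthest from the list's median, s1239 and s2683 for the squamous and macrophage lists and s2184 and s1570 for epithelium, r was 0.587, -0.609, -0.685 and 0.454. For neutrophils r was 0.545 with SLPI (adjusted permutation p = 0.0877), 0.283 with LOC407163 and -0.0804 with CXCL17. No list passed with CXCL17. After the group means were taken out, r was 0.655 for SLPI with the squamous genes and -0.787 with macrophages and monocytes, with no p computed.

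Other secreted defence proteins, inhibitors, proteases and chemokines were counted from lists, and the genes named from each list are those with the largest fold change or those called. In inflamed against non-inflamed healthy cows, 15 of 21 other mucosal defence genes had a negative log2 fold change (median -1.93), among them BPIFB1 (-6.91, standard error 1.81), a secreted protein of airway and other mucosae, and PIGR (-5.83, 1.49), the receptor that carries immunoglobulin across epithelia. Of the 8 other protease inhibitors 5 were negative (median -0.10), with WFDC2, another protein of the whey acidic protein family, at -3.21 (standard error 1.07), and A2M, the broad plasma inhibitor alpha-2-macroglobulin, at 2.30 (0.89). Of 9 mucosal chemokine and receptor genes 8 were positive (median 0.36), with CXCL14 at 3.07 and CX3CL1 at 2.57, and of 9 proteases 5 were negative (median -0.25), with KLK1 at 3.86 and PLAU at 2.77. None of them passed limma's test, with adjusted p = 0.111 for BPIFB1 and PIGR, 0.123 for WFDC2 and 0.149 for A2M, and the median over all genes was 0.14. The transcription factors of secretory epithelium were negative for 15 of 16, with SPDEF at -4.81, and the 7 ciliary genes were all negative (median -2.49). In inflamed against non-inflamed CYTO cows, limma called SERPINB4, an inhibitor of squamous epithelium, higher (log2 fold change 5.29, adjusted p = 0.00449) and 0 of the other 7 inhibitors. It also called PLAU, the urokinase plasminogen activator, higher (2.73, adjusted p = 0.00518), as the only 1 of 9 proteases. Of the 21 other mucosal defence genes, PTX3 was called higher (4.09, adjusted p = 0.00705) and RNASE4 lower (-1.78, adjusted p = 0.0229) there, and of the 10 chemokine and receptor genes CCL20 was called higher (3.72, adjusted p = 0.00182). With 8.72% of all genes called in that comparison, these few calls do not set the lists apart.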

How the data were processed

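Polyadenylated RNA from cytobrushes was sequenced by the authors as stranded, 100 bp single-end reads in 5 pools. They trimmed the reads, aligned them to UMD3.1 with STAR, kept unique hits (2 mismatches or fewer) and obtained counts for Ensembl release 86 genes with featureCounts. The submitters' processing notes name R 3.3.2 and edgeR 3.18.0. The deposited values are CPM, computed by the authors from each library's counted reads with no scaling factor. Columns of the authors' own comparisons (fold changes, likelihood ratios, p-values and FDR) were not used, and 0 columns of single samples were left unmapped.

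The outcome came from the labels. PMN class and the form of PVD came from the study's animal table by cow number, and 3 cows outside the study's set, which leaves out cows with metritis by their vaginal mucus at sampling, entered only where stated. LOC407163 was matched by the Ensembl gene that the study pairs with it.

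The values being CPM, each comparison was fitted with limma 3.58.1 (R 4.3.3, trended eBayes) on log2(CPM + 1), using the cows compared, over genes with at least 1 CPM in 5 of their libraries (4 where the smaller group had 4 cows), and with Benjamini-Hochberg adjustment over all genes. Genes were called at adjusted p under 0.05 and a log2 fold change beyond 1. Whole reads were recovered (100% of 314280 values within 0.01 of a whole read, although 13 of the 30 libraries had under 100 values at 20 reads or fewer) and tested with DESeq2 1.42.0 and edgeR 4.0.16 as alternatives. The fits were tested on simulated data. Correlations used 100000 permutations over the inflamed cows regardless of group and were two-sided. The members and gene lists were chosen with earlier results of these data known. Named genes are the members, the 10 genes with the highest mean r with them over 27 cows and, in each list, up to 2 genes (4 where called) with the largest fold change in inflamed against non-inflamed healthy cows and up to 2 called in other comparisons. CSF3R, DCN and EPCAM define cell types. Some genes that this rule takes in are not reported here.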

Additional observations from a re-analysis of the deposited data

Results flagged for a closer look

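In PVD with CYTO, SLPI in cow s1239 stood apart from the other 3 cows, at 4.68 on the log2(CPM + 1) scale (24.6 CPM). The gap to the nearest cow was 0.834 of the group's range. It was 1 of 18 gene and group pairs examined in this way, and chance gives about 1 in 20. The same cow had the highest squamous and neutrophil list levels of the 27 (10.59 and 9.32).

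The 3 cows outside the study's set, which leaves out cows with metritis by their vaginal mucus at sampling, were compared with the inflamed healthy cows. SLPI was at 929 and 1169 CPM in cows s2188 and s2672, labelled clinical, and at 695.7 CPM in cow s1378, labelled sub-clinical, against at most 4.19 CPM in inflamed healthy cows and 4769 CPM in the highest non-inflamed healthy cow. CXCL17 was at 25.6 CPM in cow s2188, against at most 11.9 CPM in inflamed healthy cows, and at 1.13 and 4.16 CPM in cows s2672 and s1378. LOC407163 was at 460.4 CPM in cow s2188, against at most 125 CPM in inflamed healthy cows, and at 27.3 and 102 CPM in cows s2672 and s1378. In these 3 cows the log2(CPM + 1) of LOC407163 minus that of SLPI was -5.37 to -1.01, while it was above 0 in each of the 27 cows of the study's set. Their squamous list levels were 8.43, 9.77 and 8.99 in cows s2188, s2672 and s1378.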

How the results depend on the processing

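For the 12 member fold changes that were tested, 190 of 204 alternative values with an adjusted p kept direction and side of the threshold, and 3 had no adjusted p. For the 9 given as descriptions, 0 of 189 alternative values changed sign. No paired analysis was possible because each cow belongs to a single group. RLE factors brought the median of all genes from 0.14 to 0.00 in inflamed against non-inflamed healthy cows and from -0.21 to 0.02 in PVD against inflamed healthy cows. For PVD CXCL17 turned to 0.30 with a pseudocount of 0.1, 0.021 with RLE, 0.006 with TMM and 0.20 with the 2 outside cows (added after seeing the data), and ran from -0.48 to 0.44 leaving out single cows. LOC407163 ran from -0.083 to 0.94 there, and CXCL17 from -0.24 to 0.44 for PVD with CYTO against PVD alone.

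SLPI in inflamed against non-inflamed healthy cows was -9.97 by DESeq2 and by edgeR. DESeq2 brought SLPI in inflamed CYTO against healthy cows over the threshold (4.60), in a test that is not independent of the choice. As descriptions, DESeq2 gave -5.91 for LOC407163 in non-inflamed CYTO against healthy cows, and 10.17 for SLPI and 8.52 for LOC407163 in the difference between outcomes. Without single cows these 4 values ran from 2.67 to 3.99, from -5.99 to -3.02, from 6.72 to 9.58 and from 5.98 to 8.95, the values farthest from 0 of the last 3 being those without cow s1890. CXCL17 did not pass the low-value filter in 4 of the leave-outs for inflamed CYTO against healthy cows, nor SLPI and CXCL17 in 4 each for PVD with CYTO against PVD alone.

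Counts of genes called depended on the fit. One fit over 27 cows called 1377 in healthy cows by inflammation, 31 in CYTO cows by inflammation, and 0 for both inflamed CYTO against healthy cows and the difference between outcomes. DESeq2 called 875, 39, 128, 3 and 94 in healthy cows by inflammation, non-inflamed CYTO, inflamed CYTO and PVD against healthy cows, and the difference between outcomes. For that difference a pseudocount of 0.1 gave 3, of 5 gave 40, RLE 19, TMM 22 and edgeR 5. For inflamed CYTO against healthy cows edgeR gave 14 and adding the outside cow 77. Without single cows the counts ran from 0 to 2156 in healthy cows by inflammation, 537 to 1172 in CYTO cows by inflammation, 0 to 373 for non-inflamed CYTO, 2 to 142 for inflamed CYTO and 2 to 588 for the difference between outcomes. Where no cause is named, the cause was not tested. SLPI and CXCL17 levels in many inflamed cows rest on few reads, so folds among them are imprecise.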

Other observations

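Named by their values and not by a rule fixed beforehand, the genes that followed each member most closely over the 17 inflamed cows differed between CXCL17 and the inhibitors. SLPI was followed by the cadherin gene CDH26 (r = 0.936), IL1R2, the decoy receptor of interleukin-1 (0.911), the growth factor gene NRG1 (0.907) and IL17 (0.901). LOC407163 was also followed by IL1R2 (0.895), and by PTGS2, the inducible enzyme of prostaglandin synthesis (0.859), and the lipoxygenase genes ALOX12 and ALOX15B (0.863 each). CXCL17 was followed by the carboxylesterase gene CES1 (0.856), the peptide transporter gene SLC15A2 (0.848), CYP4B1 (0.804), a cytochrome that oxidises foreign compounds, and the water channel gene AQP4 (0.751). In the inflamed groups CES1 averaged only 0.221 to 0.774 CPM and SLC15A2 0.416 to 0.872 CPM, so their r values rest on few reads. IL1R2 averaged 65.3 ± 61.5 CPM in inflamed CYTO cows (SD, n = 4) and 7.61 ± 8.05 CPM in inflamed healthy cows (SD, n = 5). Over all 27 cows the r of IL1R2 was 0.068 with SLPI and 0.058 with LOC407163, while that of CES1 with CXCL17 was 0.979. These are descriptions over cows that share their libraries, and the genes were picked from the highest of all.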
